A study of Mus musculus with 2 samples.

Results

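The 45 genes described here are 20 genes of DNA replication and 25 genes of mitosis, taken by symbol from a written list out of 32285 genes in single-cell libraries of the mouse esophageal epithelium. They are compared between cycling epithelial cells of a library labelled p63-KO and those of a library labelled wild type, with 1 library per group. Both came from C57BL/6 embryos at stage E18.5, shortly before birth. The p63-KO embryos carried the p63-CreER allele on both chromosomes, and the littermate controls called wild type are given the genotype p63-CreER, so both libraries hold cells with that allele. Which part of Trp63, the gene of the transcription factor p63, the allele replaces is not given in the sources used here. Xist, the RNA that silences an X chromosome in females, and Y-linked RNAs were found in separate cells of each library, so each pooled embryos of both sexes. Without replicate libraries there is no test between groups: every interval below is a 95% interval that covers counting error only, and every difference is one between these libraries.

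Cells copy their DNA in S phase and separate it in mitosis, and most genes that serve these steps are transcribed only around the time they are needed. Replication genes are switched on at the end of G1 by E2F factors, when Rb family proteins release them. Genes of G2 and mitosis come later, under B-Myb, FoxM1 and the MuvB complex, which binds the CHR element of their promoters. In stratified epithelia such as the esophagus, division is mostly a matter of the basal layer, whose identity depends on p63, and cells stop dividing as they move up and become squamous.

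The p63-KO library held 2821 barcodes with 86504624 UMIs (unique molecular identifiers, 1 for each captured transcript), and the wild-type library 6034 barcodes with 76472445. After filters on quality and doublets, 1677 of 2375 p63-KO cells and 5358 of 5519 wild-type cells were epithelial by their markers, with medians of 25250 and 11070 UMIs per cell in p63-KO and wild type. In the joint clustering hardly any epithelial cluster held cells of both libraries in number, so the cells compared here belong to different clusters. After the filters 5 cell barcodes were found in both libraries.

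A cell was called cycling if, after random thinning to 5000 UMIs, it had at least 3 of 54 other cell cycle genes, none of which is among the 45. This held for 723 of 1629 p63-KO cells with enough UMIs (44.4%, 42.0 to 46.8) and for 2829 of 4991 wild-type cells (56.7%, 55.3 to 58.1). With at least 5 genes the shares were 22.4% in p63-KO and 38.7% in wild type. The difference depended on the definition. Clusters formed within a library, with at least 5 of the 54 genes raised 2-fold, could replace the gate. They held 443 of 1677 p63-KO cells (26.4%, or 23.0% without a ciliated-like cluster) and 1445 of 5358 wild-type cells (27.0%). The gate marks cells with cell cycle RNA, not cells seen to divide: it also passed 34 of 54 p63-KO and 15 of 24 wild-type ciliated-like cells, a type that has left the cycle, and 23.6% and 13.9% of the cells of wild-type subclusters 4 and 8 (clusters formed within a library), whose leading genes include squamous genes such as Sprr1a (subcluster 4) and Cnfn (subcluster 8). With at least 5 genes, 6.91% and 1.83% of subclusters 4 and 8 passed. Subclusters in which 0 of the 54 genes were raised 2-fold gave cycling cells in both libraries. The largest of these in each library gave 928 of 1594 cells (wild-type subcluster 1) and 104 of 252 cells (p63-KO subcluster 2). With at least 5 genes, 32.6% and 9.13% of these passed. Epcam, an epithelial adhesion protein, was found in 99.7% of p63-KO and 97.4% of wild-type cycling cells. Krt5, the basal keratin, was found in 0.968% of p63-KO and 97.9% of wild-type cycling cells. Trp63 RNA stood at 125 CPM (UMIs scaled to a fixed total, the same for both libraries) in p63-KO and 370.3 CPM in wild-type cycling cells, and since these are 3′ reads, whether they lie in the replaced part is unknown.

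Every one of the 45 genes took a smaller share of the RNA in p63-KO cycling cells than in wild-type cycling cells. The median log2 ratio of CPM, p63-KO over wild type with 1 added to each, was -0.80 over the 20 replication genes (range -1.40 to -0.55) and -1.31 over the 25 mitosis genes (-1.69 to -0.79). At least 2-fold lower were 7 of 20 replication genes and 23 of 25 mitosis genes, and 0 were higher. Of all 11662 measured genes (at least 5 CPM in either library), 11.2% were at least 2-fold lower, 14.3% at least 2-fold higher and 55.7% lower by any amount, with a median log2 ratio of -0.10. Summed over the genes, replication RNA made up 537 CPM in p63-KO and 983 CPM in wild-type cycling cells, and mitosis RNA 1081 CPM in p63-KO and 2673 CPM in wild type. The intervals of the 2 libraries did not overlap for any of the 45 genes. Such intervals narrow as UMIs add up, and how many of all measured genes had intervals apart was not counted. With 5 genes required, the medians were -0.69 and -1.19 for replication and mitosis genes. In place of the gate, subclusters with at least 5 of the 54 genes raised 2-fold gave -1.14 and -1.78, and -1.05 and -1.66 without the p63-KO ciliated-like subcluster, which met that rule. The direction turned round for the replication sum among cells with over 20000 UMIs (793 CPM in p63-KO and 655 CPM in wild type at 20000 to 40000 UMIs). Most p63-KO cycling cells, but few wild-type ones, were that deep.

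The number of these transcripts per cell went the other way. Replication genes summed to 30.6 UMIs per p63-KO cycling cell and 13.0 per wild-type cycling cell, and mitosis genes to 61.6 in p63-KO and 35.3 in wild type. All 45 genes had more UMIs per cell in p63-KO, with a median fold of 2.39 for replication genes (range 1.53 to 2.92) and 1.72 for mitosis genes (1.29 to 2.46). The p63-KO cycling cells held a median of 44568 UMIs in all and the wild-type ones 11610. Of all measured genes, 97.1% had more UMIs per p63-KO cycling cell, with a median fold of 4.001, so the cell cycle genes exceeded wild type per cell by less than the median gene did. The direction per cell did not hold for the mitosis genes in cells with Y-linked RNA, nor for either list in cells with 10000 to 20000 UMIs, both given below. RNA per cell and capture per droplet cannot be told apart here.

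**Figure D1:**
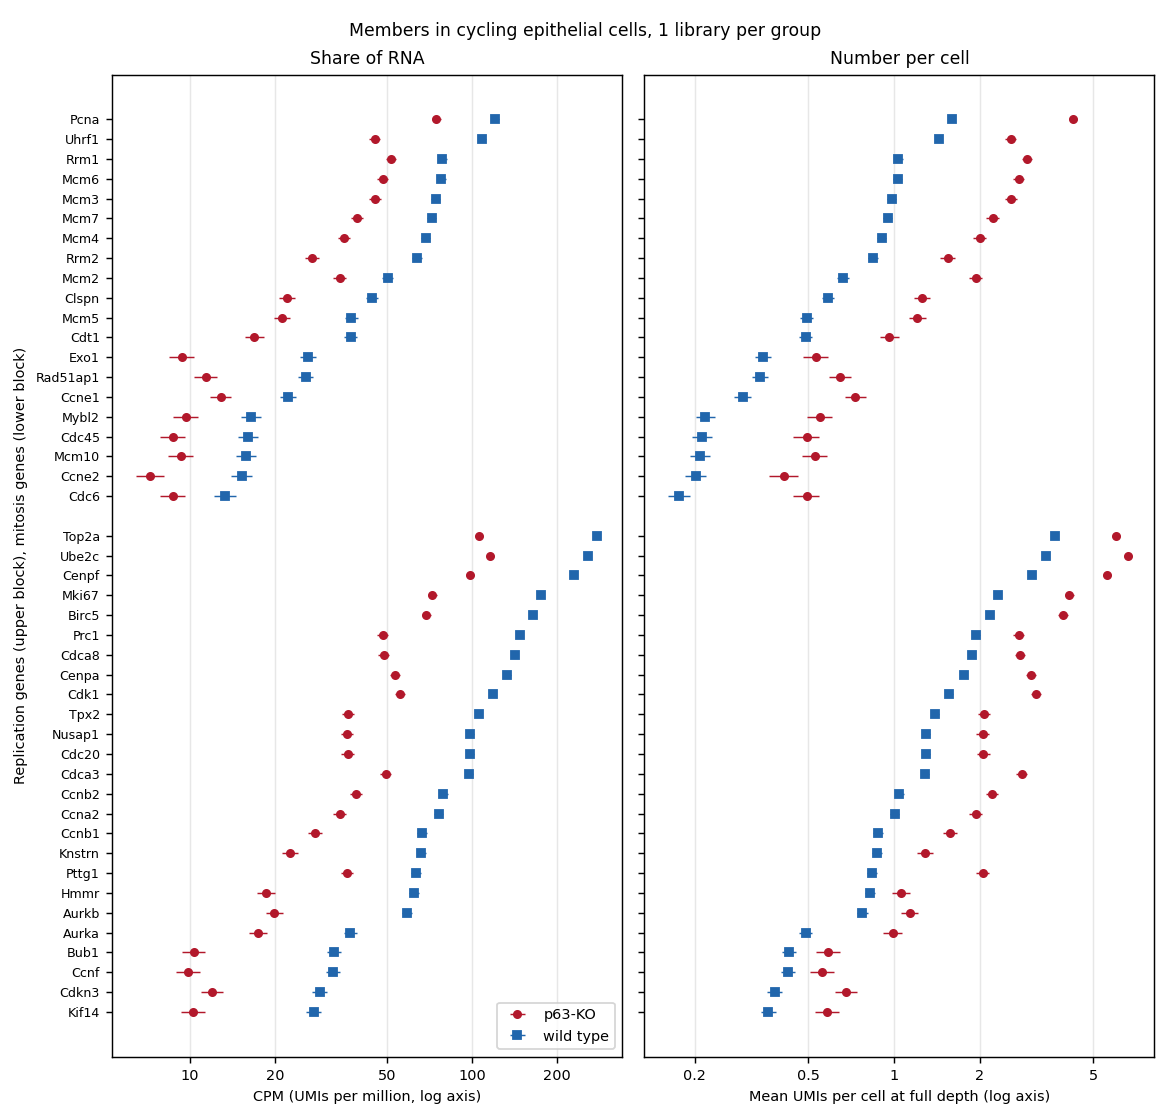
Levels of the 45 genes in cycling epithelial cells, p63-KO (red circles, 723 cells) and wild type (blue squares, 2829 cells), as CPM (left) and as mean UMIs per cell (right), both on log axes, with 95% Poisson intervals for counting error. For all 45 genes the red point lies left of the blue one in CPM and right of it in UMIs per cell.

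Among the replication genes, the 6 subunits of the MCM helicase, which unwinds DNA at the fork, were closest together: their log2 ratios lay between -0.94 and -0.55, and none reached 2-fold. Mcm6 had 48.1 CPM (46.01 to 50.3) in p63-KO and 77.8 CPM (74.998 to 80.7) in wild-type cycling cells. Mcm4 had 35.1 CPM (33.3 to 36.96) in p63-KO and 68.4 CPM (65.8 to 71.1) in wild type, 1.95-fold lower (1.83 to 2.08). Mcm7 had 38.9 CPM (37.1 to 40.9) in p63-KO and 71.8 CPM (69.1 to 74.6) in wild type. The helicase subunits form a complex in equal numbers, and their RNAs differed between the libraries by 1.48-fold to 1.95-fold. Of the 5 genes that load and fire origins, Cdt1 and Clspn passed 2-fold. Cdt1, which brings the helicase to origins, had 16.9 CPM (15.7 to 18.2) in p63-KO and 37.1 CPM (35.1 to 39.1) in wild type, 2.19-fold lower (1.999 to 2.40). Clspn, the fork protein that relays checkpoint signals, had 22.1 CPM (20.7 to 23.6) in p63-KO and 44.3 CPM (42.2 to 46.5) in wild type. Cdc6 and Mcm10, which also act at origins, had log2 ratios of -0.56 and -0.71, and Cdc45, a part of the active helicase, -0.82.

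The genes of nucleotide supply, the clamp and repair were spread more widely, from -1.40 to -0.60. Exo1, a nuclease of mismatch and break repair, had 9.33 CPM (8.42 to 10.3) in p63-KO and 26.2 CPM (24.6 to 27.9) in wild type, 2.81-fold lower (2.50 to 3.17). Rrm2, the regulated subunit of ribonucleotide reductase, had 27.1 CPM (25.5 to 28.7) in p63-KO and 63.8 CPM (61.3 to 66.4) in wild type, 2.36-fold lower (2.20 to 2.53). Rrm1, the other subunit of the same enzyme, had 51.5 CPM in p63-KO and 78.3 CPM in wild type, 1.52-fold lower (1.44 to 1.61). The intervals of these folds, which cover counting error only, do not overlap. Whether the 2 subunits differed to unequal degrees beyond counting error was not tested. Pcna, the sliding clamp of the polymerase, had 74.5 CPM (71.9 to 77.2) in p63-KO and 120.5 CPM (117 to 124) in wild type. Of the G1/S genes, Uhrf1, which carries DNA methylation over to new strands, had 45.1 CPM (43.04 to 47.2) in p63-KO and 108 CPM (105 to 112) in wild type, 2.41-fold lower (2.28 to 2.54). Ccne2, a cyclin that drives entry into S phase, had 7.22 CPM (6.42 to 8.08) in p63-KO and 15.2 CPM (14.01 to 16.5) in wild type. Ccne1, its paralog, and Mybl2, which encodes B-Myb, had log2 ratios of -0.75 and -0.72.

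Among the mitosis genes, the 7 of the spindle were lowest in p63-KO relative to wild type together with the 4 of the chromosomal passenger complex and checkpoint, with medians of -1.51 and -1.52. Hmmr, a protein of spindle poles and microtubules, had 18.6 CPM (17.3 to 20.001) in p63-KO and 62.4 CPM (59.9 to 64.98) in wild-type cycling cells, 3.35-fold lower (3.09 to 3.64). Prc1, which bundles the central spindle, had 48.1 CPM (46.01 to 50.3) in p63-KO and 147 CPM (143 to 151) in wild type, 3.06-fold lower (2.90 to 3.22). Tpx2, Nusap1, Knstrn and Kif14, which build the spindle or move along it, lay between -1.51 and -1.34, and the spindle pole kinase Aurka at -1.05. Bub1, a kinase of the spindle checkpoint, had 10.3 CPM (9.34 to 11.3) in p63-KO and 32.3 CPM (30.5 to 34.2) in wild type, 3.14-fold lower (2.80 to 3.51). Cdca8 and Birc5 encode 2 subunits of the passenger complex, borealin and survivin. Cdca8 had 48.6 CPM (46.5 to 50.8) in p63-KO and 142 CPM (138 to 146) in wild type, 2.92-fold lower (2.77 to 3.07). Birc5 had 68.8 CPM (66.3 to 71.4) in p63-KO and 164 CPM (160.4 to 169) in wild type, 2.39-fold lower (2.29 to 2.50). The kinase of that complex, Aurkb, had a log2 ratio of -1.51.

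All 6 genes of the cyclin group passed 2-fold. Cdk1, the kinase that drives mitosis, had 55.5 CPM (53.2 to 57.8) in p63-KO and 118 CPM (115 to 122) in wild type, 2.13-fold lower (2.02 to 2.24). Its partner Ccnb1 had 27.7 CPM (26.1 to 29.3) in p63-KO and 66.6 CPM (63.98 to 69.2) in wild type. Ccnf, the substrate receptor of a ubiquitin ligase, had 9.84 CPM (8.90 to 10.8) in p63-KO and 32.1 CPM (30.3 to 33.98) in wild type, 3.26-fold lower (2.91 to 3.66). Ccna2, Ccnb2 and the phosphatase gene Cdkn3 had log2 ratios of -1.14, -1.01 and -1.20. The group around the anaphase-promoting complex held the smallest ratio of the mitosis genes, that of Pttg1, which encodes securin, the guard of sister chromatids, at -0.79. Ube2c, the ubiquitin-conjugating enzyme of that complex, had 116 CPM (113 to 119) in p63-KO and 258 CPM (253 to 263) in wild type, 2.23-fold lower (2.15 to 2.31). Cdc20, its activator, had 36.2 CPM (34.3 to 38.03) in p63-KO and 98.1 CPM (94.97 to 101) in wild type, 2.71-fold lower (2.55 to 2.88). Cdca3, linked to the degradation of Wee1, stood just under 2-fold at -0.97.

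The chromosome and centromere genes, among them the usual markers of dividing cells, were all past 2-fold. Top2a, the topoisomerase that untangles sister DNA, had 106 CPM (103 to 109) in p63-KO and 277 CPM (271 to 282) in wild type, 2.61-fold lower (2.52 to 2.71). Cenpa, the centromere histone, had 53.2 CPM (50.95 to 55.4) in p63-KO and 133 CPM (129 to 137) in wild type. Mki67, the Ki-67 antigen, had 72.3 CPM in p63-KO and 175 CPM in wild type, and Cenpf, a kinetochore protein, had a log2 ratio of -1.22. In UMIs per cell the same markers were higher in p63-KO: Top2a averaged 6.02 in p63-KO and 3.66 in wild type, and Mki67 4.11 in p63-KO and 2.31 in wild type.

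Cycling cells were placed in the cycle by the other 54 genes: a cell was S-leaning if at most 1/3 of its UMIs from them came from G2/M genes, G2/M-leaning if at least 2/3 did, and mixed in between. S-leaning were 264 of 723 p63-KO cells (36.5%, 33.0 to 40.1) and 1296 of 2829 wild-type cells (45.8%, 44.0 to 47.7). G2/M-leaning were 282 p63-KO cells (39.0%, 35.4 to 42.7) and 1037 wild-type cells (36.7%, 34.9 to 38.5), and mixed 177 (24.5%) in p63-KO and 496 (17.5%) in wild type. Cells were placed from a mean of 8.49 UMIs in p63-KO and 15.1 in wild type, so each p63-KO cell was placed from fewer UMIs.

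Along this axis the members kept much the same order. The phase position of a gene, its log2 ratio of CPM + 1 in G2/M-leaning over S-leaning cells, had the sign of its list in both libraries for 43 of 45 genes. Over the 45 genes the positions in the libraries had a Spearman rho of 0.95, which the separation of the lists largely sets: within the 20 replication genes it was 0.68 and within the 25 mitosis genes 0.89. These are descriptions over genes that share their cells, not tests. Positions were drawn in towards 0 in p63-KO for 18 of 20 replication genes and all 25 mitosis genes. How many of all measured genes lay nearer 0 in p63-KO was not counted. The p63-KO cells were placed from fewer UMIs, and the part of this in the positions was not tested. The median position of the replication genes was -0.79 in p63-KO and -1.39 in wild type, and that of the mitosis genes 2.62 in p63-KO and 3.90 in wild type.

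Cdc6, which licenses origins, stood first in p63-KO (-1.65; -2.25 in wild type), and Cdt1 stood first in wild type (-1.15 in p63-KO; -2.85 in wild type). At the late end, Ube2c stood last in p63-KO at 4.03 against 5.42 in wild type, and Hmmr stood last in wild type, at 2.93 in p63-KO and 5.51 in wild type. Exo1 differed most in rank, standing second from the early end in p63-KO (rank 2) and at rank 15 in wild type. Both subunits of ribonucleotide reductase lay late for their list: Rrm1 was above 0 in both libraries (0.41 in p63-KO, 0.16 in wild type), and Rrm2 was at 0.36 in p63-KO and -0.62 in wild type. Within 3 ranks of each other were 27 of 45 genes.

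**Figure D2:**
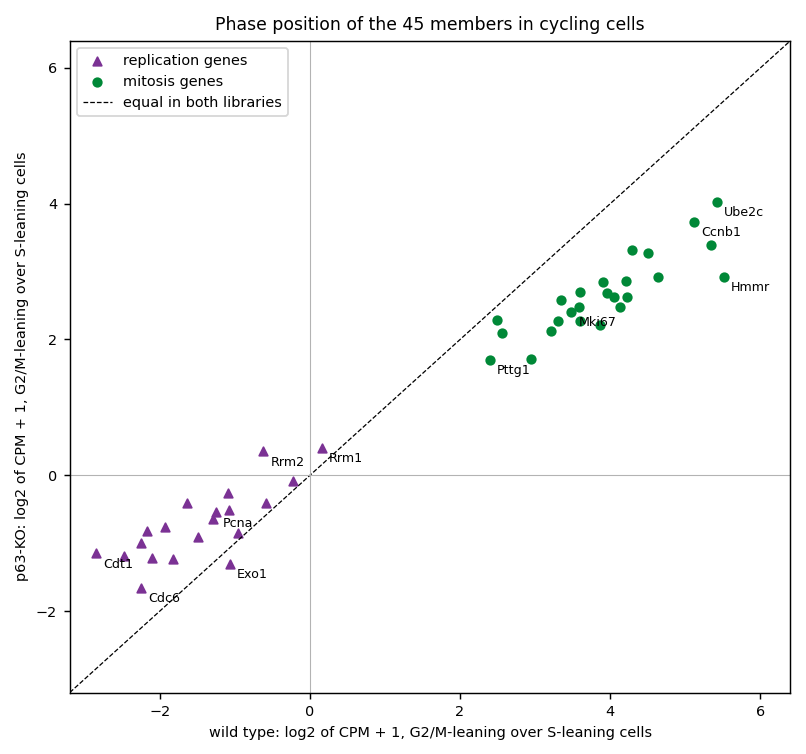
Phase position of each gene in p63-KO (vertical) against wild type (horizontal), as log2 of CPM + 1 in G2/M-leaning over S-leaning cycling cells; purple triangles are the 20 replication genes, green circles the 25 mitosis genes, and the dashed line marks equal positions. All mitosis genes lie under the line, with medians of 2.62 in p63-KO and 3.90 in wild type, and 18 of 20 replication genes lie nearer 0 in p63-KO.

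The lower share of RNA was also there among cells with the same phase label. In p63-KO those labels came from fewer UMIs of the genes used for placing, counted after thinning to 5000 UMIs. S-leaning cells had a mean of 6.26 in p63-KO and 10.1 in wild type. For G2/M-leaning cells it was 9.71 in p63-KO and 20.9 in wild type. Over all cycling cells the genes used for placing had median log2 ratios of -0.91 (S) and -1.16 (G2/M). Whether cells with the same label stood at the same place in the cycle was not tested. In S-leaning cells the replication genes had a median log2 ratio of -0.98, with 10 of 20 past 2-fold, against 12.2% of all measured genes, and summed to 615 CPM in p63-KO and 1268 CPM in wild type. In G2/M-leaning cells the mitosis genes had a median of -1.58, with 25 of 25 past 2-fold, against 10.7% of all genes, and summed to 1836 CPM in p63-KO and 5479 CPM in wild type. Per cell, 22 of the 25 mitosis genes were still higher in p63-KO G2/M-leaning cells (96.7% of all genes were), with a median fold of 1.27. Outside their own phase the genes differed less: replication genes had a median of -0.28 in G2/M-leaning cells over the 18 measured there, and mitosis genes -0.47 in S-leaning cells over 20.

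With every cell thinned to 2000 UMIs, and all 723 p63-KO and 2829 wild-type cycling cells deep enough for that, each of the 45 genes was found in a smaller share of p63-KO than of wild-type cycling cells, with intervals apart for 40. The median share over the replication genes was 3.87% in p63-KO and 7.74% in wild type, and over the mitosis genes 5.95% in p63-KO and 12.6% in wild type. At full depth the order was reversed for 44 of the 45. By another measure, mean UMIs per cell, 97.1% of all measured genes were higher in p63-KO cycling cells. How many of all measured genes had a smaller thinned share in p63-KO, thinned intervals apart, or a larger full-depth share was not counted. Top2a was found in 13.1% of thinned p63-KO and 23.9% of thinned wild-type cycling cells, and at full depth in 54.2% and 41.4% of p63-KO and wild-type cells. Pcna was found in 15.5% of thinned p63-KO cells and 20.1% of thinned wild-type cells, and at full depth in 79.5% of p63-KO and 60.8% of wild-type cells.

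Among epithelial cells that did not pass the gate, thinned shares had medians of 0.717% in p63-KO and 0.902% in wild type for replication genes, and 0.442% in p63-KO and 0.555% in wild type for mitosis genes, at median depths of 20808 and 11250 UMIs before thinning. Ccne2 in p63-KO was no more frequent in cycling cells (0.968%) than in these (0.993%), so its thinned share is read as background. Thinned ciliated-like cells had some members at least as often as cycling cells did, 11 of 45 in p63-KO (54 cells, median 40117 UMIs) and 7 of 45 in wild type (25 cells, 23666 UMIs). Pttg1 was the most frequent of them in p63-KO, in 27.8% of ciliated-like cells against 8.16% of cycling cells. The groups overlap: 34 of 54 p63-KO and 15 of 24 wild-type ciliated-like cells with at least 5000 UMIs passed the gate and count as cycling too.

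The members' RNA was spread unevenly over the epithelial cells of each library. In p63-KO, subcluster 1 (283 cells, median 68531 UMIs) summed to 699 CPM of replication RNA and 1656 CPM of mitosis RNA. Subcluster 7 (103 cells, 23513 UMIs), among whose leading genes were Foxi1 and Ascl3, transcription factors of ionocytes, had similar shares, 640.3 CPM and 1725 CPM. Both met the rule of at least 5 raised cell cycle genes, though none of the 10 leading genes of subcluster 7 is one of the 45 members. In wild type, subcluster 3 (536 cells, 12768 UMIs) had 2694 CPM of replication RNA and 1357 CPM of mitosis RNA, subcluster 5 (459 cells, 15998 UMIs) 889 and 9617 CPM of these, and subcluster 6 (450 cells), led by Cenpa, Ccnb2 and Cdkn3, 335 and 3920 CPM. Per cell, mitosis RNA reached 123 UMIs in p63-KO subcluster 1 and 152 UMIs in wild-type subcluster 5. Subclusters were formed within each library from genes that include members, so these values describe where the RNA was and compare nothing.

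**Figure D3:**
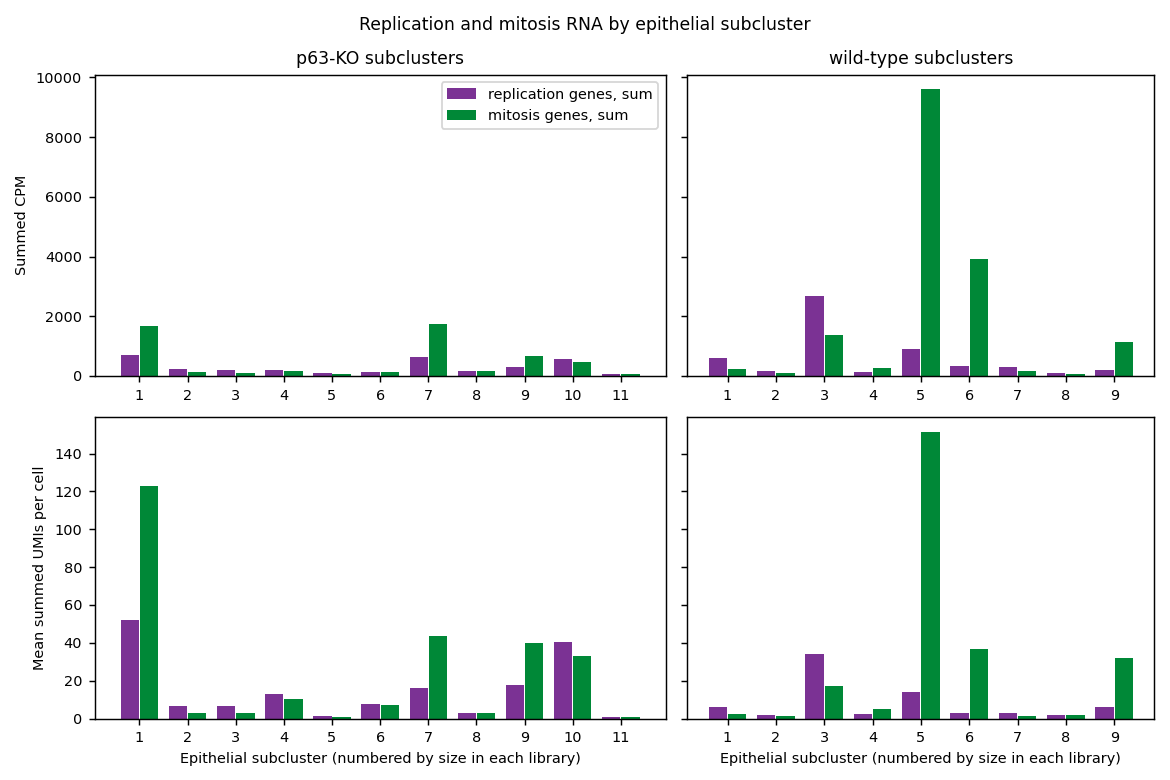
Summed replication (purple) and mitosis (green) RNA in each epithelial subcluster of the p63-KO library (left) and the wild-type library (right), as CPM (top) and mean UMIs per cell (bottom); subclusters are numbered by size within each library, so equal numbers do not mean equal cells. The mitosis sum reaches 9617 CPM in wild-type subcluster 5, while p63-KO subclusters 1 and 7 stand at 1656 and 1725 CPM.

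Cells were also split by Xist and Y-linked RNA, which mark female and male embryos, and the 2 lists stood far apart only in cells with Y-linked RNA. The split is partial, since some cells held both kinds of RNA, as given below. Among cells with Xist RNA alone (364 p63-KO and 1744 wild-type cycling cells), the medians were -0.73 for replication and -0.97 for mitosis genes, and 16 of 45 genes passed 2-fold downwards, against 9.84% of all measured genes. Among cells with Y-linked RNA alone (154 p63-KO and 784 wild-type cycling cells), replication genes stood at -0.62 and mitosis genes at -2.18, and 29 of 45 passed 2-fold downwards, against 12.5% of all genes. Hmmr had 11.4 CPM in p63-KO and 79.4 CPM in wild-type cycling cells with Y-linked RNA, 6.98-fold lower (5.34 to 9.29), and 22.6 CPM in p63-KO and 58.4 CPM in wild-type cells with Xist RNA, 2.59-fold lower (2.32 to 2.89). The mitosis sum was 690 CPM in p63-KO and 3069 CPM in wild-type cells with Y-linked RNA, and 1332 CPM in p63-KO and 2578 CPM in wild-type cells with Xist RNA.

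In the cells with Y-linked RNA the mitosis genes were lower in p63-KO per cell as well. They summed to 22.8 UMIs per p63-KO and 36.3 per wild-type cycling cell, and only Pttg1 and Cdk1 of the 25 genes were above wild type, although 93.3% of all measured genes were. In cells with Xist RNA all 25 were higher per cell in p63-KO, as were 97.0% of all genes, with sums of 70.4 UMIs in p63-KO and 33.8 in wild type. The replication genes were higher per p63-KO cell in both, 20 of 20 each time. Sex, embryo and the depth of these cells (medians of 26092 UMIs with Y-linked RNA and 37521 with Xist RNA in p63-KO) cannot be told apart here. A further 201 of the 723 p63-KO cycling cells (27.8%, median 89365 UMIs) and 238 of the 2829 wild-type ones (8.41%, median 15768 UMIs) held RNA of both kinds, and whether these are doublets was not tested. Without them, the medians were -0.71 for replication and -1.16 for mitosis genes, with 25 of 45 past 2-fold downwards, against 10.5% of all genes.

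**Figure D4:**
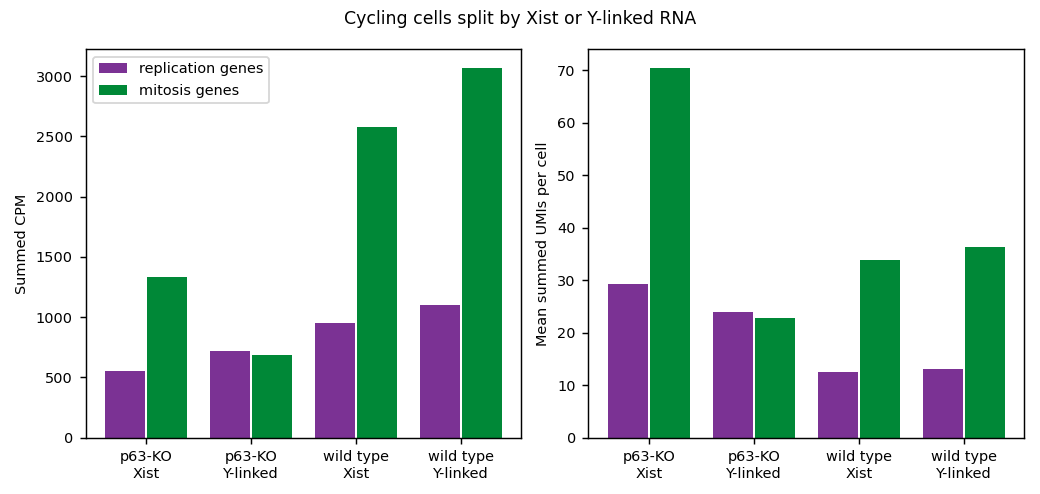
Summed replication (purple) and mitosis (green) RNA in cycling cells with only Xist RNA and with only Y-linked RNA, p63-KO left of wild type, as CPM (left panel) and mean UMIs per cell (right panel). Mitosis RNA stands at 1332 and 690 CPM in the p63-KO bars and at 2578 and 3069 CPM in the wild-type bars.

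Total UMIs per cell bear on the result, since only part of the cells of both libraries share a range. Among cycling cells with 10000 to 20000 UMIs (123 p63-KO and 1655 wild-type), the medians were -2.43 for replication and -2.15 for mitosis genes, and 42 of 45 genes passed 2-fold downwards, against 11.5% of all genes. Per cell, Pttg1 alone of the 45 was higher in p63-KO in this range, although 67.4% of all genes were. With 20000 to 40000 UMIs (199 p63-KO and 221 wild-type cells), the replication sum was higher in p63-KO, 793 CPM against 655 CPM in wild type, while the mitosis sum was lower, 1568 CPM against 3571 CPM. From 40000 UMIs (389 p63-KO and 40 wild-type cells) the replication sum was 510 CPM in p63-KO and 325 CPM in wild type, and the mitosis sum 1024 CPM in p63-KO and 1114 CPM in wild type. The lower replication share in p63-KO therefore held among all cycling cells and at 5000 to 10000 UMIs (487 CPM in 12 p63-KO cells, 717 CPM in 913 wild-type cells) and 10000 to 20000 UMIs, and turned round above that. Most of the 723 p63-KO cycling cells lay in the ranges where it turned round (199 and 389 cells), and few wild-type ones did.

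RNA of other cell types also moved with the comparison. The 8 fibroblast markers summed to 635 CPM in p63-KO and 60.4 CPM in wild-type cycling cells, with Col3a1 found in 74.7% of p63-KO and 1.10% of wild-type cells, and none of the 8 at 0 in either. Of these markers, 5 were found in at least 25% of p63-KO cycling cells and 1 in at least 25% of wild-type ones. Over the 8, the shares of cells ran from 3.60% to 95.9% in p63-KO and from 0.106% to 34.1% in wild type. These shares are at full depth, which was greater in p63-KO cycling cells. The 12 ciliated markers summed to 365 CPM in p63-KO and 131 CPM in wild type, and the 9 neuroendocrine markers to 277 CPM in p63-KO and 2.33 CPM in wild type, where 2 of them were at 0. Their part in the lower shares of the 45 genes was not tested.

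Other cell cycle genes were described by lists that hold none of the 45. A list of 12 genes, most of them of chromatin, with the microtubule genes Stmn1, Tuba1b and Tubb5 and the lamin gene Lmnb1, had a median log2 ratio of -1.12, and 9 of 12 were at least 2-fold lower, against 11.2% of all measured genes. Stmn1 had 198 CPM (194 to 203) in p63-KO and 780.4 CPM (771 to 789) in wild type; it encodes stathmin, which takes microtubules apart. Hmgn2 had 69.3 CPM (66.8 to 71.9) in p63-KO and 199 CPM (194 to 204) in wild type, and it encodes a nucleosome-binding protein. Nasp, a histone chaperone, and Ezh2, the methyltransferase of Polycomb, had log2 ratios of -1.22 and -1.22. The 13 genes of condensin and cohesin had a median of -0.82, with 3 of 13 at least 2-fold lower, against the same 11.2% of all genes. These were the condensin genes Ncapg (-1.50), Smc2 (-1.29) and Ncapd2 (-1.18), while Smc4 stood at -0.90.

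Regulators upstream of the cycle had medians nearer to the -0.10 of all measured genes. The 15 genes of E2F, Rb and MuvB had a median of -0.23, with 4 of 15 at least 2-fold lower, and the 7 G1 cyclins and kinases a median of -0.37, with 0 of 7 past 2-fold, against 11.2% of all genes lower and 14.3% higher. Rbl1 had 21.6 CPM (20.2 to 23.1) in p63-KO and 65.1 CPM (62.6 to 67.8) in wild type, 3.01-fold lower (2.79 to 3.26); it encodes p107, the Rb family member that E2F induces. E2f7 and E2f8, the repressors of the E2F family, had log2 ratios of -1.17 and -1.16, and Lin9, a core subunit of MuvB, -0.77. Cdk4 had 182 CPM in p63-KO and 326 CPM in wild type, and its partner Ccnd3 209 CPM in p63-KO and 125 CPM in wild type. Cdc25a and Cdk2, which act at entry into S phase, stood at -0.64 and -0.51.

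Among the 12 measured inhibitors and brakes of the cycle the median was -0.09, and 0.39 with 5 genes required, so its sign depends on the gate. At least 2-fold higher in p63-KO cycling cells were 2 of 12 and at least 2-fold lower 1 of 12, shares near the 14.3% and 11.2% of all measured genes. Those higher were Btg2, an antiproliferative gene, and Gadd45a, a gene of stress responses. Btg2 had 968 CPM (958 to 977) in p63-KO and 191 CPM (186 to 195) in wild type, 5.08-fold higher (4.95 to 5.21). Gadd45a had 30.6 CPM (28.9 to 32.3) in p63-KO and 9.54 CPM (8.58 to 10.6) in wild type, 3.21-fold higher (2.85 to 3.62). Tob1, of the same family as Btg2, had 72.4 CPM in p63-KO and 39.8 CPM in wild type, and Cdkn2d, an inhibitor of Cdk4, 22.5 CPM in p63-KO and 38.9 CPM in wild type. The lower one was Cdkn2c, a second inhibitor of that kinase, named after its values were seen, with 5.98 CPM in p63-KO and 19.4 CPM in wild type.

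Promoters of the members were read from RefSeq (build GRCm38.p6), which matched 39 of the 45 by symbol, 17 replication and 22 mitosis genes; Aurkb, Ccna2, Ccne2, Exo1, Mcm4 and Tpx2 had no entry. Each window held 250 bases before to 50 after the start, and motifs were sought on both strands. The letters of the CHR, TTTGAA, were in 16 of 22 mitosis and 2 of 17 replication windows, against 20.2% of the windows of all 27025 genes. Those of an E2F site, TTCCCGC, were in 7 of 17 replication windows and in no mitosis window, against 5.29% of all, and the longer TTTGGCGC in 4 of 17 and in none, against 0.585%. CCAAT, the letters bound by NF-Y, was in 13 of 17 replication and 18 of 22 mitosis windows, against 41.1% of all. A match of letters is a description, and not evidence of binding. Shown are 120 bases before to 25 after the start, 5′ to 3′ along the gene, of the genes with the largest CPM ratios in each list among those with an entry, Uhrf1 (chr17:56303217-56303361, plus strand), Rrm2 (chr12:24708134-24708278, plus strand), Hmmr (chr11:40733413-40733557, minus strand) and Ccnf (chr17:24251385-24251529, minus strand). Capitals mark these motifs on either strand (CCAAT reads ATTGG on the other), and the windows run from upstream sequence into the first bases of the first exon.
Uhrf1: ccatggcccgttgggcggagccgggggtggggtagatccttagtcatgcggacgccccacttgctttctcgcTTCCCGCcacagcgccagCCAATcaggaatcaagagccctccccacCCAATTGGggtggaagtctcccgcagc
Rrm2: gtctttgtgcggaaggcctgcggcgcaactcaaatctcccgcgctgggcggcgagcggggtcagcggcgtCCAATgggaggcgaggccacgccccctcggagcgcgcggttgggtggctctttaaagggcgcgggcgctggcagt
Hmmr: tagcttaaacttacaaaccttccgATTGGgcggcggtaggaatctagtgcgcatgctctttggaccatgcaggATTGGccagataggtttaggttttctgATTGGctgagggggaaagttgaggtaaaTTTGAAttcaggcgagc
Ccnf: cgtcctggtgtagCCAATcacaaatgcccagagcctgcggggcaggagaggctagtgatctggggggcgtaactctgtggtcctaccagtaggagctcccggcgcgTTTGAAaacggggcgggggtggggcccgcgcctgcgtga

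In these windows the E2F letters stood in Uhrf1 and the CHR letters in Hmmr and Ccnf, and all 4 held CCAAT, with 3 copies each in Uhrf1 and Hmmr. In the cells, Uhrf1 and Rrm2 were 2.41-fold and 2.36-fold lower in p63-KO in CPM, and Hmmr and Ccnf 3.35-fold and 3.26-fold lower. In cells with Y-linked RNA the log2 ratios were -0.99 for Uhrf1, -1.17 for Rrm2, -2.70 for Hmmr and -2.43 for Ccnf. No binding was measured.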

How the data were processed

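Epithelium freed of muscle was dissociated with dispase and trypsin and sequenced from 3′ ends in droplets, per the labels' protocols. The submitters' processing notes name Cell Ranger 7.1.0 and mm10. The authors deposited raw UMI counts for each gene and barcode. Counting of introns is not given in the sources used here. Kept were barcodes with at least 500 genes, 1000 UMIs and at most 10% mitochondrial UMIs, and simulated-doublet scores removed 0.8% per 1000 cells (47 p63-KO and 268 wild-type cells). Cells were clustered jointly without integration (2000 variable genes, 30 components, 20 neighbours, Leiden resolution 1; leidenalg 0.10.2, scikit-learn 1.9.0, Python 3.11.15), and epithelial cells again within each library at 0.6. Clusters were named from marker lists. UMIs were summed over cycling cells and scaled to CPM. Log2 ratios had 1 added to CPM, and folds did not.

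Intervals are exact Poisson (levels), Clopper-Pearson (shares) and conditional binomial (folds) at 95%. Coverage of the fold intervals was checked only on simulated Poisson counts, the model they assume. That check says nothing about spread between cells or libraries. UMI thinning and doublet scoring used fixed seeds. Members and lists were chosen with earlier results of these data known. Named with full values were, in each role group, the gene with the highest CPM in either library and those with the largest and second largest absolute log2 ratio, and up to 4 genes of each further list with at least 20 CPM. No test between groups is possible with 1 library each. GENCODE M21 shows 11 members with another gene on their strand within their span, whose reads may be split between them: Cdt1, Ccnf, Clspn, Exo1, Kif14, Mcm7, Mybl2, Nusap1, Rrm1, Top2a and Tpx2.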

Additional observations from a re-analysis of the deposited data

Results flagged for a closer look

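The mitosis genes went in opposite directions per cell when cycling cells were split by sex-linked RNA. The median fold of UMIs per cell, p63-KO over wild type, was 0.599 in cells with Y-linked RNA and 2.05 in cells with Xist RNA, and the difference between these was not tested. The groups hold 154 and 784 cells with Y-linked RNA in p63-KO and wild type.

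The p63-KO library also held 517 fibroblast-like cells, which no comparison above used. In these the replication genes summed to 375 CPM (360 to 391) and the mitosis genes to 700.1 CPM (679 to 722), against 123 CPM (45.1 to 268) and 348 CPM (203 to 558) in 10 wild-type fibroblast-like cells. In p63-KO epithelial cells the sums were 376 and 671 CPM.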

How the results depend on the processing

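Of 142 results recomputed under the alternatives, 95 stayed within the counting interval (or within 1.5 times, for counts) and 47 moved. For the medians this was the fold interval of the middle gene, or the mean of those of the 2 middle genes. It is not an interval of the median itself, so these labels are rough. None of the medians changed sign, and shares and counts could not be labelled reversed. The order of the G2/M-leaning shares between the libraries did turn round under some alternatives. These shares were 39.0% in p63-KO and 36.7% in wild type in the main setting. They were 36.4% in p63-KO and 37.4% in wild type with 5 genes required, and 42.7% and 50.7% by clusters. The ranges above 20000 UMIs, where the replication sum turned round, were not among the alternatives. The phase order stayed at 41 to 43 of 45 genes in its 18 alternatives.

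The median for replication genes was -0.69 with 5 genes required, -1.14 in clusters (-1.05 without the ciliated-like one), -0.62 in cells with Y-linked RNA, -0.67 with a pseudocount of 5 and -2.43 in cells with 10000 to 20000 UMIs. The median for mitosis genes was -1.19 with 5 genes required, -1.45 with the gate at 10000 UMIs, -1.78 in clusters (-1.66 without the ciliated-like one), -1.22 in cells chosen by an Epcam or Cdh1 UMI, -1.19 with cells weighted equally, -0.97 with Xist RNA, -2.18 with Y-linked RNA, -1.40 at an equal phase mix, -1.22 with a pseudocount of 5, -2.15 at 10000 to 20000 UMIs and -1.16 without cells holding both Xist and Y-linked RNA. With Xist RNA 16 members were at least 2-fold lower. The choices of 10000 to 20000 UMIs, of no cells with both RNAs and of clusters without the ciliated-like one were made after seeing the data.

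The p63-KO cycling share was 66.1% with 2 genes required, 22.4% with 5, 34.4% with the gate at 2000 UMIs, 26.4% by clusters (23.0% without the ciliated-like one), 41.3% with Xist RNA, 40.2% with Y-linked RNA, 51.6% without ciliated-like and neuroendocrine-like cells, 24.2% at 10000 to 20000 UMIs and 40.97% without cells holding both RNAs. The wild-type share was 73.1%, 38.7%, 46.5% and 27.0% under the first 4 of these and 60.1% at 10000 to 20000 UMIs. The p63-KO G2/M-leaning share was 34.4% with 2 genes required, 30.1% with the gate at 10000 UMIs, 43.3% by clusters without the ciliated-like one (42.7% with it), 33.1% with Y-linked RNA, 47.7% with 1 phase cut at the middle and 43.1% at 10000 to 20000 UMIs. The wild-type one was 34.7%, 32.7% and 50.7% under the first 3 of these, 42.5% with the cut at the middle and 33.3% at 10000 to 20000 UMIs. The causes were not tested.

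No paired analysis was possible because each group has 1 library, and leaving out a replicate was not possible for the same reason. Depth limits the low members most: Ccne2 had 297 UMIs in p63-KO and 570 in wild-type cycling cells.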

Other observations

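A cluster of low depth stayed unnamed. It held 20 p63-KO and 150 wild-type cells with medians of 1906 and 2766 UMIs, and Ascl3, Ube2c, Aurkb and Birc5 were among its leading genes. Its mitosis genes summed to 1554 CPM (1238 to 1926) in p63-KO and 5726 CPM (5501 to 5957) in wild type, and its replication genes to 449 CPM (288 to 668) in p63-KO and 1337 CPM (1229 to 1451) in wild type. These cells entered no comparison.

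Epithelial cells under 5000 UMIs, which the gate left out, held 48 p63-KO and 367 wild-type cells. Their mitosis sum was 374 CPM (270 to 506) in p63-KO and 1028 CPM (971 to 1087) in wild type.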
